A study of Homo sapiens with 2 samples.

Results

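Histone lysine methylation and acetylation enzymes were followed in a human multiple myeloma cell line, MM.1S, cultured with plasmacytoid dendritic cells (pDCs) or alone. The set holds 55 genes, chosen by name as known writers or erasers of methyl and acetyl marks, out of 19775 genes on the array. They were read through the 172 probe sets, out of 54675, that the annotation of the Affymetrix HG-U133 Plus 2.0 array assigns to exactly 1 of these symbols. By role, 19 were methyl writers, 13 methyl erasers, 9 acetyl writers and 14 acetyl erasers. MM.1S cells cultured with pDCs gave 1 array and MM.1S cells cultured alone gave 1 array, and both groups share the cell line and the total RNA preparation. The series asks how pDCs affect growth and drug resistance of myeloma cells. Culture time, the number and source of the pDCs, and whether they were removed before RNA extraction are not stated by the labels. With n = 1 per group there is no replicate error and no test, so "higher" and "lower" describe these arrays only, whose number limits the precision. In RNA of a whole culture, fewer cells of a type and less RNA per cell cannot be told apart.

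Histone tails carry small chemical marks on lysines that help set whether the underlying DNA is read. Acetyl groups, added by histone acetyltransferases and removed by histone deacetylases (HDACs) and sirtuins, generally go with open and active chromatin. Methyl groups act by position: on lysine 4 of histone H3 (H3K4) they mark promoters and enhancers, on H3K36 transcribed gene bodies, and on H3K9 and H3K27 silent regions. Several of these enzymes matter in myeloma: NSD2 is activated by translocation in a subset of tumours, KDM6A is lost by mutation in others, and HDAC inhibitors have been used in treatment.

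Few of these enzymes differed by as much as 2-fold between the arrays, and no class went one way. The values are linear array signals scaled by the authors, and each gene was read from its brightest probe set, by mean log2 signal. The median signal of each array, 115.9 in co-culture and 124.0 alone, served as a floor, and a signal at or above it is called measurable here. Of the 55 genes, 54 were measurable on both arrays. The exception was SETD1A, a writer of H3K4 methylation, at 72.8 in co-culture against 103 alone, which therefore has no ratio. Each log2 ratio is the co-culture value minus the value alone. A difference of 2-fold or more was the threshold of size. EZH2, EHMT2 and KDM6A were past it on the higher side (3 of 54, 5.56%, where 3.16% of all 14408 genes measured, meaning measurable on at least 1 array, were), and HDAC5 and KDM7A on the lower side (2 of 54, 3.70%, where 4.51% of all genes were). Both shares lie near those of all genes. Among the 11522 genes measurable on both arrays, as all 54 members were, 2.69% were higher and 3.40% lower. At 1.5-fold, 7 members were higher and 7 lower, 13.0% each way, against 11.5% and 15.3% of all genes. The median log2 ratio was 0.02 over the 54 members and -0.03 over all genes measured. The quartiles of the members were -0.17 and 0.35, and those of all genes -0.39 and 0.30.

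**Figure D1:**
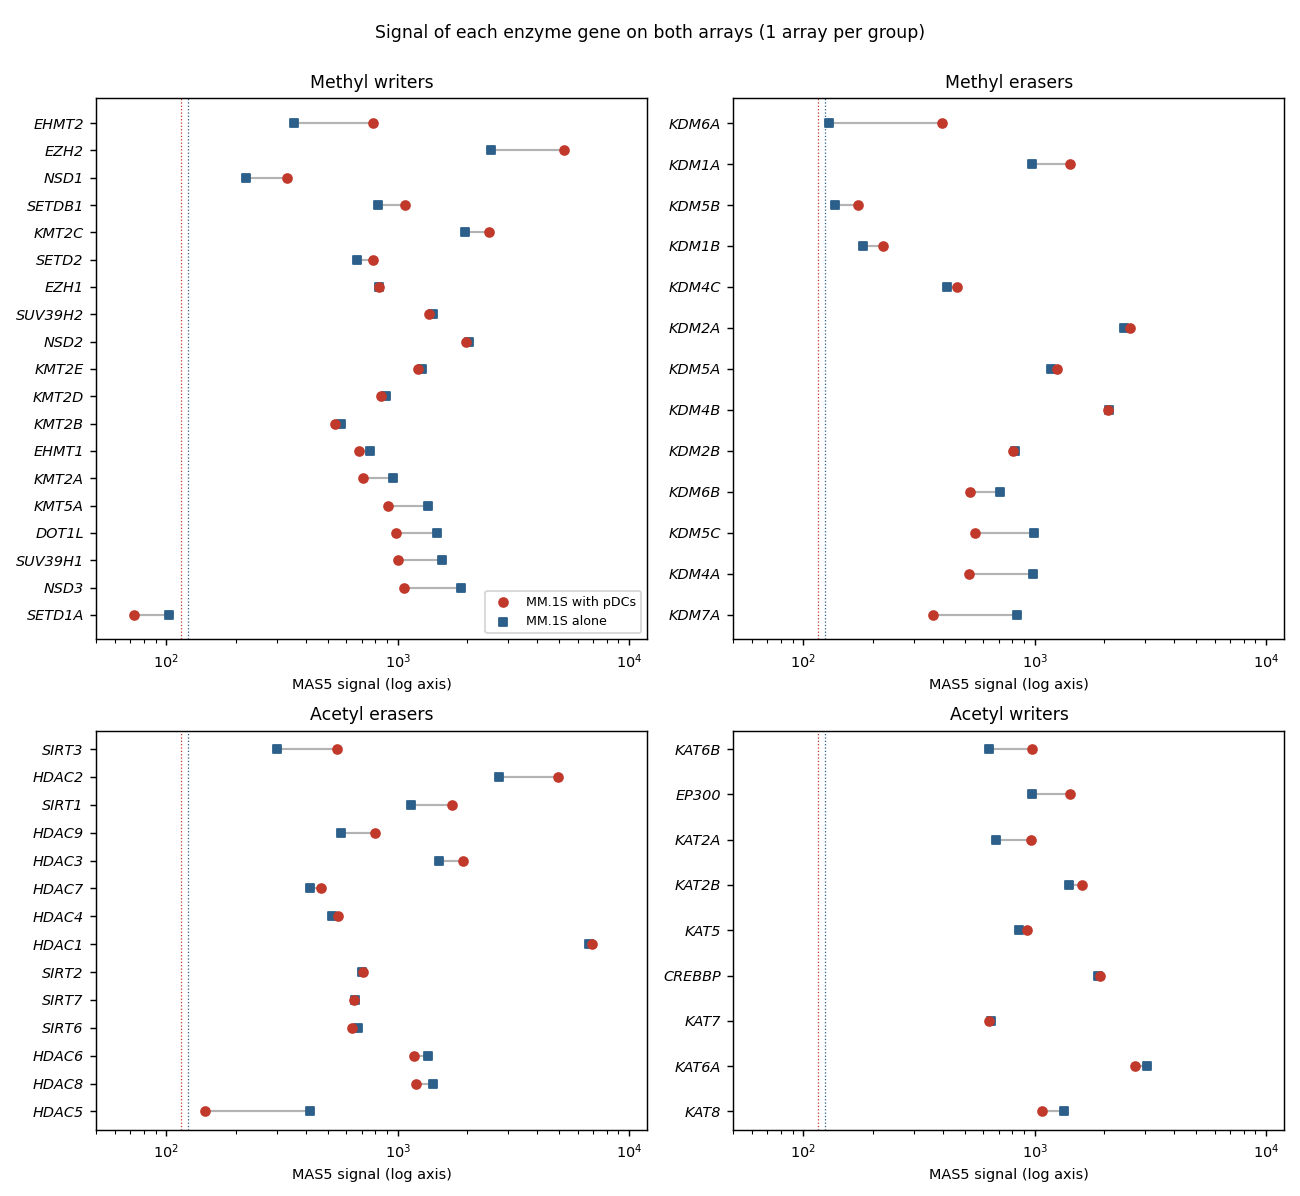
MAS5 signal (log axis) of the probe set standing for each enzyme gene on the array of MM.1S cells with pDCs (red circles) and of MM.1S cells alone (blue squares). Dotted lines are the floors of 115.9 and 124.0. EZH2, EHMT2 and KDM6A lie clearly to the right in co-culture, HDAC5 and KDM7A to the left, and most pairs of points nearly touch.

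The bases just upstream of the members past 2-fold are shown as the regulatory sequence next to the genes that differed most. RefSeq (GRCh38.p14) sequences were matched for EZH2 (chr7:148884292-148884541, minus strand), EHMT2 (chr6:31897699-31897948, minus strand), KDM6A (chrX:44872938-44873187, plus strand) and KDM7A (chr7:140176984-140177233, minus strand). HDAC5 is named only. Each line gives the 250 bases before the start farthest upstream, 5′ to 3′, and capitals mark CCAAT boxes, the letters CCAAT on either strand.
EZH2: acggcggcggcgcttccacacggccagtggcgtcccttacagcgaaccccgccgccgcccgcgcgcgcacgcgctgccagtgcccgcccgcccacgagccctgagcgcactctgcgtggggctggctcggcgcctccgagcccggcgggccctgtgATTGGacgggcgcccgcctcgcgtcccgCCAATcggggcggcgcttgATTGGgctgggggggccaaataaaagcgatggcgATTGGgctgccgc
EHMT2: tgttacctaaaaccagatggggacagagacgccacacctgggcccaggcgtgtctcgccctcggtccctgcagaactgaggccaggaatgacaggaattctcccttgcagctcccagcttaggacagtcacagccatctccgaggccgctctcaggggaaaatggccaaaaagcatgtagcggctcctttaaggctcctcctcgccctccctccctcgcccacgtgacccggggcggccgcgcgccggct
KDM6A: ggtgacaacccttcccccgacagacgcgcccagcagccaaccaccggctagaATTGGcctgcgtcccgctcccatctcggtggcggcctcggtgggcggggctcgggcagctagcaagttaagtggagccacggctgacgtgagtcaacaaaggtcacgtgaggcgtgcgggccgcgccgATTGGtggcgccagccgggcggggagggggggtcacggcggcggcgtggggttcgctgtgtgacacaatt
KDM7A: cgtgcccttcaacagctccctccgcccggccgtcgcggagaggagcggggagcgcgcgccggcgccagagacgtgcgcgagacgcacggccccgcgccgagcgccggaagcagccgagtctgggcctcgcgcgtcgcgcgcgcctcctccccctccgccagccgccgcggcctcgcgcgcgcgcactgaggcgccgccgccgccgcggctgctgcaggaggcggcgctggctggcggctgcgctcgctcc
The EZH2 window holds 4 CCAAT boxes, the KDM6A window 2, and those of EHMT2 and KDM7A 0. Of the 49 members with a promoter in the table, 10 (20.4%) hold at least 1 CCAAT box, against 34.7% of 11531 promoters of measured genes. The letters TTTCCCGC, TTTCGCGC, TTTGCCGC or TTTGGCGC on either strand, which E2F factors of the cell cycle can bind, were in 4 of the 49 (8.16%) and in 4.15% of all, and in none of the 4 windows shown. GC boxes (GGGCGG, either strand) were in 65.3% of member promoters and in 61.7% of all. Member promoters held a median of 24 CpG sites in these 250 bases, against 19 over all. The 4 printed windows ranged from 16 CpG sites in EHMT2 to 50 in KDM7A. These counts describe letters, not occupied sites.

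The group of 5 writers and erasers of H3K27 methylation held 3 genes past 2-fold, and they did not go one way. In it 2 were higher and 1 was lower, where 3.16% and 4.51% of all genes measured were. The group counts KDM7A, which also acts on H3K9. With all measurable probe sets of a gene averaged, KDM6A (0.86) and KDM7A (-0.60) fell short of 2-fold. EZH2, the catalytic subunit of Polycomb repressive complex 2 (PRC2) that methylates H3K27, lies on chromosome 7 at 148807383 to 148884291. Its 1 probe set read 5219 in co-culture against 2536 alone, a log2 ratio of 1.04 (2.06-fold), higher than in 97.7% of the 11522 genes measurable on both arrays. The co-culture array was thus the higher one, from a signal far above the floor on both. EZH1, the paralog that predominates in resting cells, had 832 against 827 (0.01) on its brightest probe set, and its 3 others above the floor gave -0.32, -0.45 and 0.28. The log2 ratios of EZH2 and EZH1 therefore differed by 1.03.

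KDM6A (UTX), which removes methyl groups from H3K27 and works with KMT2C and KMT2D at enhancers, lies on chromosome X at 44873188 to 45112779. It had the largest ratio of the set, 398 in co-culture against 129 alone (1.62, or 3.08-fold). That value rests on 1 probe set whose signal alone was just above the floor. Another KDM6A probe set had 187 against 175 (0.10), and the 2 others, at 98.5 against 21.5 and 10.1 against 5.91, were not measurable on either array. KDM6B (JMJD3), the inflammation-inducible H3K27 demethylase, went the other way with 525 against 710.5 (-0.44), and -0.40 on its second probe set above the floor. KDM7A, a plant-homeodomain demethylase of H3K9 and H3K27, on chromosome 7 at 140084746 to 140176983, had 366 in co-culture against 837 alone and was 2.29-fold lower (-1.19). Its other probe set, 121 against 69.1, was below the floor alone and has no direction.

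Partners of EZH2 in PRC2 differed less. Of 9 PRC2 subunits and accessory factors, 8 ratios were positive and 1 was negative, with a median of 0.09, and 0 were past 2-fold. RBBP4, a histone-binding subunit shared with HDAC complexes, had the largest, at 8098 in co-culture against 4437 alone (0.87). The core subunits EED and SUZ12 had 0.07 and 0.09. EZH2 is also known as a gene of cycling cells. The list of 19 proliferation genes had 17 positive and 2 negative ratios, a median log2 ratio of 0.37 and a summed signal of 173371 in co-culture against 141055 alone. The proliferation marker MKI67 had 7197 against 4399 (0.71) and TOP2A, the topoisomerase of mitotic chromosomes, had 4592 against 2665 (0.78). Both lay above the list median. Ratios in the list ranged from -0.07 (MCM6) to 1.01 (CENPE), with MCM4 at -0.06 and RRM2 at 0.07. The part of proliferation in the EZH2 difference was not tested.

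Enzymes of H3K9 methylation, the mark of constitutive heterochromatin, were split. EHMT2 (G9a), which writes it in euchromatin, lies on chromosome 6 at 31879759 to 31897698. Its brightest probe set had 780.2 in co-culture against 357 alone (1.13, 2.18-fold), and ranked above 98.3% of genes. A second EHMT2 probe set pointed the other way, at 93.6 against 159 (-0.45 or lower, since it was below the floor in co-culture), and the third, 121 against 32.6, has no direction. Its dimer partner EHMT1 (GLP) had 679 against 760 (-0.16), so the pair differed by 1.29 in log2 ratio on the brightest probe sets. Bounds from the 2 other EHMT1 probe sets were -1.03 or lower and at least 0.38. SUV39H1, which methylates H3K9 in pericentric heterochromatin, had 1004 against 1553 (-0.63) on its 1 probe set, while its paralog SUV39H2 had 1369 against 1422 (-0.05). SETDB1, which silences retroelements, had 0.39 on one probe set and -0.43 on the other. Among the KDM4 erasers of H3K9 and H3K36 methylation, KDM4A had 521 against 980.0 (-0.91), just short of 2-fold, but 0.47 on its second probe set. KDM4B had -0.01 and KDM4C 0.15. Other KDM4B probe sets measurable in both cultures had -0.15, -0.52 and 0.22, with bounds of at least 0.02 and of -0.15 or lower.

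None of the H3K4 enzymes was past 2-fold on its brightest probe set. The 5 measured writers, KMT2A to KMT2E, had log2 ratios between -0.44 (KMT2A) and 0.35 (KMT2C) on their brightest probe sets. The 4 other KMT2A probe sets measurable in both cultures ranged between -0.28 and 0.66, and another gave a bound of -0.80 or lower. KMT2B, a writer at promoters, had 538 in co-culture against 570.0 alone (-0.08). KMT2D, an enhancer H3K4 methyltransferase often mutated in lymphoma, had 848 in co-culture against 889 alone (-0.07), with -0.60 and -1.14 on its 2 other probe sets above the floor. KMT2C, its paralog, had 2487 against 1945 (0.35), and its 5 probe sets that were measurable in both cultures ranged between -0.70 and 0.79. Another KMT2C probe set gave a bound of -0.73 or lower. KMT2E carries a related domain and is thought to lack methyltransferase activity. Of the shared core and accessory subunits of these COMPASS complexes, 7 of 11 had positive ratios and 4 negative ones (median 0.11), and 0 passed 2-fold. PSIP1 (LEDGF), which tethers KMT2A to chromatin, had the largest, 3614 against 2004 (0.85). Among H3K4 erasers, KDM1A (LSD1), the flavin-dependent demethylase, had 1427 in co-culture against 970.4 alone (0.56) and its paralog KDM1B had 0.29. KDM5C, an X-linked eraser, had 552 against 996 (-0.85), with -0.22 on its other probe set. KDM5A and KDM5B had 0.08 and 0.33 on their brightest probe sets. Other KDM5A probe sets measurable in both cultures had -0.55 and 0.41, and KDM5B had bounds of at least 0.28 and 0.61.

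H3K36 and the remaining methyl writers gave moderate differences. NSD2 had 1966 in co-culture against 2044 alone (-0.06), and its 5 probe sets that were measurable in both cultures ranged between -0.52 and 0.47. A bound of at least 0.92 came from another NSD2 probe set, at 234 in co-culture against 102 alone. NSD3, its paralog, had 1067 against 1882 (-0.82), with -0.70 on the next probe set and between 0.15 and 0.34 on 3 further ones. Another NSD3 probe set, 20.7 in co-culture against 248 alone, gave a bound of -1.10 or lower. NSD1 had 0.59 on its brightest probe set and -0.80 and -0.47 on others. SETD2, the H3K36 methyltransferase of elongating genes, was uniform, at 784 against 665 (0.24), 0.23 and 0.22 on its 3 probe sets. The H3K36 erasers KDM2A and KDM2B had 0.08 and -0.03, with -0.32 and -0.12 on the other KDM2A probe sets. DOT1L, which methylates H3K79, had 983 in co-culture against 1478 alone (-0.59) and 437 against 661 (-0.60) on its second probe set, so both probe sets above the floor were lower by nearly the same amount. KMT5A, the H4K20 monomethyltransferase of dividing cells, had 913 against 1346 (-0.56), but 0.35 and -0.39 on 2 others and at least 1.07 on one that was below the floor alone.

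**Figure D2:**
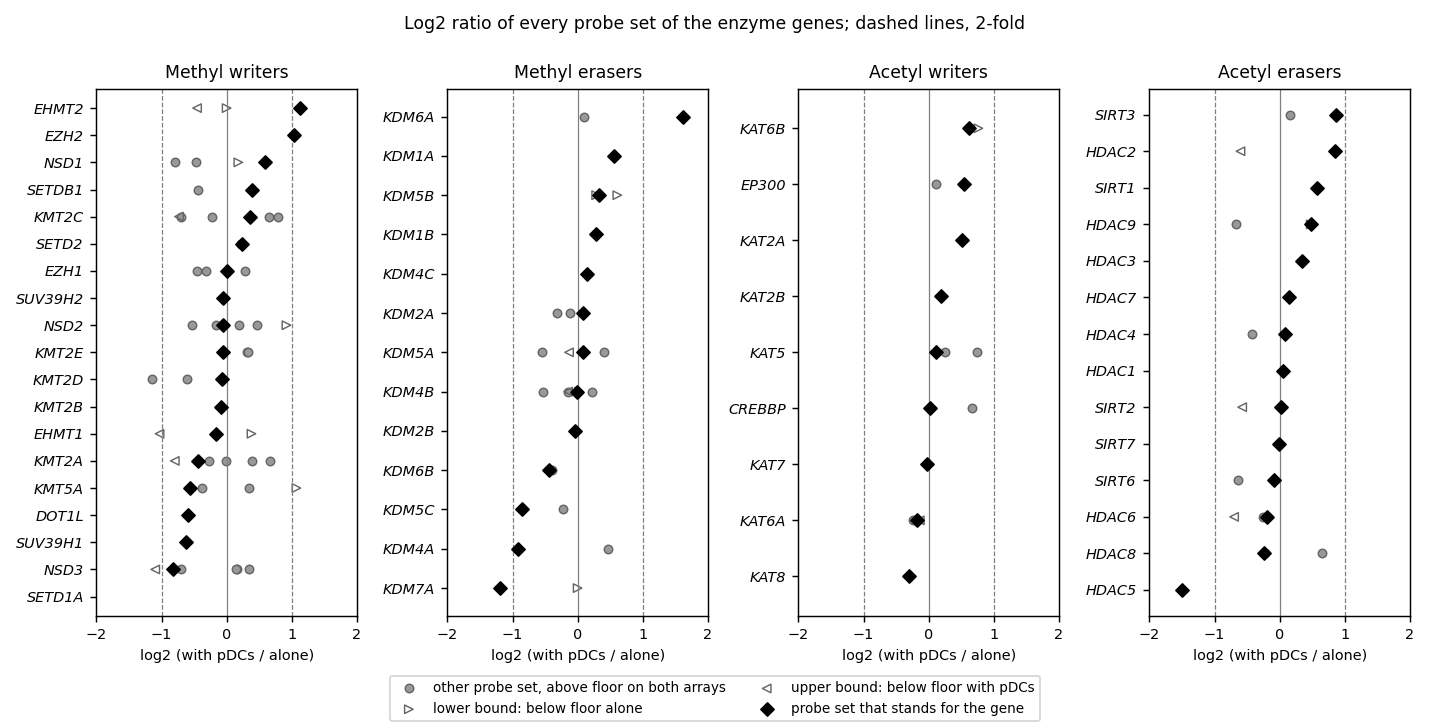
Log2 ratio (co-culture over alone) of every probe set of each enzyme gene that was above the floor on at least 1 array. Diamonds are the probe sets that stand for the gene, grey circles others, and open triangles bounds, with those of no direction at 0. The probe sets of SETD2, DOT1L and KDM6B nearly coincide, while those of KDM6A, KMT2C, NSD1 and KDM4A are spread over more than 1 log2 unit.

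Acetyl writers had log2 ratios between -0.30 and 0.62, and 0 of 9 were past 2-fold, where 3.16% of all genes were on the higher side and 4.51% on the lower. EP300 (p300), a coactivator acetyltransferase of enhancers, had 1424 in co-culture against 975 alone (0.55), and 0.12 on its second probe set. Its paralog CREBBP (CBP) had 1921 against 1884 (0.03), and 0.67 on its second. KAT2A (GCN5), the acetyltransferase of the SAGA complex, had 964 against 678 (0.51) on its 1 probe set, and KAT2B (PCAF) had 0.19. In the MYST family, KAT6B had 978 in co-culture against 635 alone (0.62), while its paralog KAT6A had 2707 against 3063 (-0.18) and -0.24 on a second probe set. KAT5 (TIP60), which acts in DNA repair and transcription, had positive ratios on all 3 probe sets (0.11, 0.25 and 0.75). KAT7, which acetylates histones at replication origins, had -0.03, and KAT8, the main writer of H4K16 acetylation, had -0.30. Subunits of acetyltransferase complexes numbered 23, of which 14 had positive and 9 negative ratios (median 0.22). MSL3, which guides KAT8 to active genes, was the 1 past 2-fold, at 657 against 299 (1.14), yet its 2 other probe sets had -0.01 and 0.04.

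Acetyl erasers included the lowest ratio of the set. HDAC5, a class IIa deacetylase that shuttles between nucleus and cytoplasm, lies on chromosome 17 at 44076753 to 44123641. Its signal was 147 in co-culture against 418 alone, 2.83-fold lower (-1.50), with the co-culture value not far above the floor. Only 0.677% of the genes measurable on both arrays had a lower ratio. The other HDAC5 probe set, 31.0 against 20.2, was below the floor on both. The remaining class IIa members HDAC4, HDAC7 and HDAC9 had 0.08, 0.15 and 0.48, each positive, though the second HDAC4 and HDAC9 probe sets had -0.42 and -0.68. A further HDAC9 probe set, 173 in co-culture against 14.6 alone, gave a bound of at least 0.48. HDAC6, the cytoplasmic tubulin deacetylase, had 1178 against 1349 (-0.19), with -0.25 on its second probe set. A further HDAC6 probe set, 39.4 in co-culture against 188 alone, gave a bound of -0.70 or lower.

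The class I deacetylases, nuclear enzymes of the corepressor complexes, differed among themselves. HDAC2 had 4923 in co-culture against 2729 alone (0.85, 1.80-fold), short of 2-fold, on a probe set far above the floor. The second HDAC2 probe set, 89.3 against 176, was -0.60 or lower. HDAC1, its partner in the same complexes, had 6927 against 6694 (0.05), so the 2 log2 ratios differed by 0.80. HDAC3, the enzyme of the NCOR complex, had 1923 against 1511 (0.35), and HDAC8 had -0.24, -0.23 and 0.65 on 3 probe sets. Of 18 measured subunits of deacetylase complexes, 13 had positive and 5 negative ratios, with a median of 0.18 and 0 past 2-fold. GPS2 of the NCOR complex had the largest, 2291 against 1311 (0.80). Sirtuins, the deacetylases that use NAD, ranged between -0.08 and 0.86. SIRT3, which is mostly mitochondrial, had 547 in co-culture against 302 alone (0.86) and 0.16 on its second probe set. SIRT1, which also deacetylates p53, had 1709.8 against 1146 (0.58), while SIRT2, SIRT6 and SIRT7 lay between -0.08 and 0.02 on their brightest probe sets. The second SIRT6 probe set had -0.64, and that of SIRT2 -0.58 or lower.

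**Figure D3:**
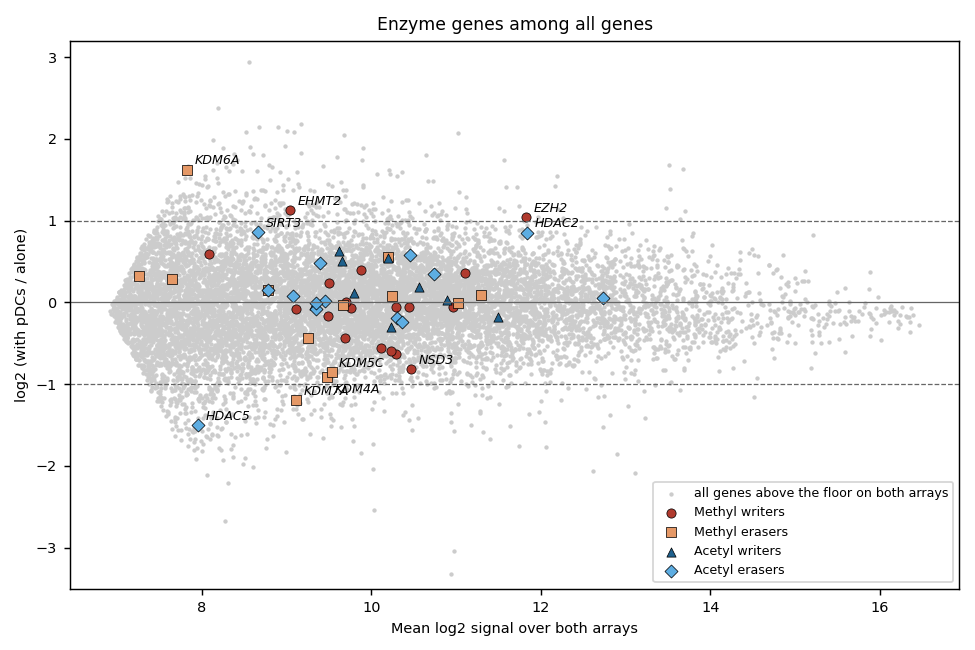
Log2 ratio (co-culture over alone) against mean log2 signal, for all 11522 genes measurable on both arrays (grey) and for the 54 enzyme genes among them (coloured by class). KDM6A and HDAC5 lie at low signal, where ratios of all genes are widely spread, and EZH2 and HDAC2 lie at high signal.

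Writers and erasers did not separate. Methyl writers had a median log2 ratio of -0.06 (7 of 18 positive) and methyl erasers of 0.08 (7 of 13 positive), a difference of -0.14. Leaving out probe sets with the suffix x_at or s_at, whose probes may match more than 1 transcript, turned that difference to 0.30, with 15 writers and 10 erasers left. Acetyl writers had a median of 0.11 (6 of 9 positive) and acetyl erasers of 0.07 (9 of 14 positive), a difference of 0.05. That became 0.28 when all measurable probe sets of a gene were averaged, with bounds counted as ratios. For comparison, 46.7% of all genes measured had a positive ratio.

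Probe sets of 1 gene often disagreed. Counting probe sets measurable in both cultures, 29 enzyme genes had 2 or more, and 13 of these (44.8%) had ratios of 1 sign, against 49.0% of 4844 such genes in the whole table. The median gap between the highest and the lowest ratio of a gene was 0.74 in the enzymes and 0.56 in all genes. At probe set level, 4 of 130 were at least 2-fold higher and 5 at least 2-fold lower, 3.08% and 3.85%, where 4.19% and 4.67% of all 25795 probe sets were. Beside the genes already named, these were bounds for KMT5A (higher), EHMT1 and NSD3 (lower), and a KMT2D probe set (lower). The control probe sets differed in the ratio of 3′ to 5′ signal, which was 8.09 in co-culture and 19.5 alone for ACTB, and 2.46 and 3.07 for GAPDH. Many of the enzymes come from long genes, with a median span of 66.3 kb against 29.6 kb for all genes. Enzyme genes of at least 100 kb had a median log2 ratio of 0.08 (20 genes) and shorter ones of -0.0014 (34 genes), where all genes gave 0.09 and -0.05. Span runs from the start to the end of the gene, introns included. It is not transcript length, so these medians cannot address RNA quality. The part of RNA quality in single ratios was not tested.

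Genes that read the marks were looked at beside the enzymes. Of 13 measured readers of methylated lysine, UHRF1 was higher and CBX6 and CBX7 were lower by 2-fold or more (median -0.12, 6 positive and 7 negative). Among all genes measured, 3.16% were higher and 4.51% lower by as much. UHRF1, which binds methylated H3K9 and hemimethylated DNA at replication forks, had 5510.4 in co-culture against 2079 alone (1.41, 2.65-fold) on its 1 probe set. CBX7, a chromodomain subunit of Polycomb repressive complex 1, had 1329 against 2821 (-1.09) on its 1 probe set. CBX6, of the same complex, had 1713 against 3743 (-1.13) but 0.19 on its other probe set. Of 19 measured readers of acetylated lysine, 12 had positive and 7 negative ratios (median 0.18), and BAZ2A, a bromodomain protein that silences ribosomal DNA, was the 1 past 2-fold, at 262 against 692 (-1.40), with 0.07 and 0.48 on others. Further lysine enzymes outside the set (26 measured) had 15 positive and 11 negative ratios, a median of 0.12 and 0 past 2-fold. SETMAR had the largest of these, 429 against 230.3 (0.90).

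**Figure D4:**
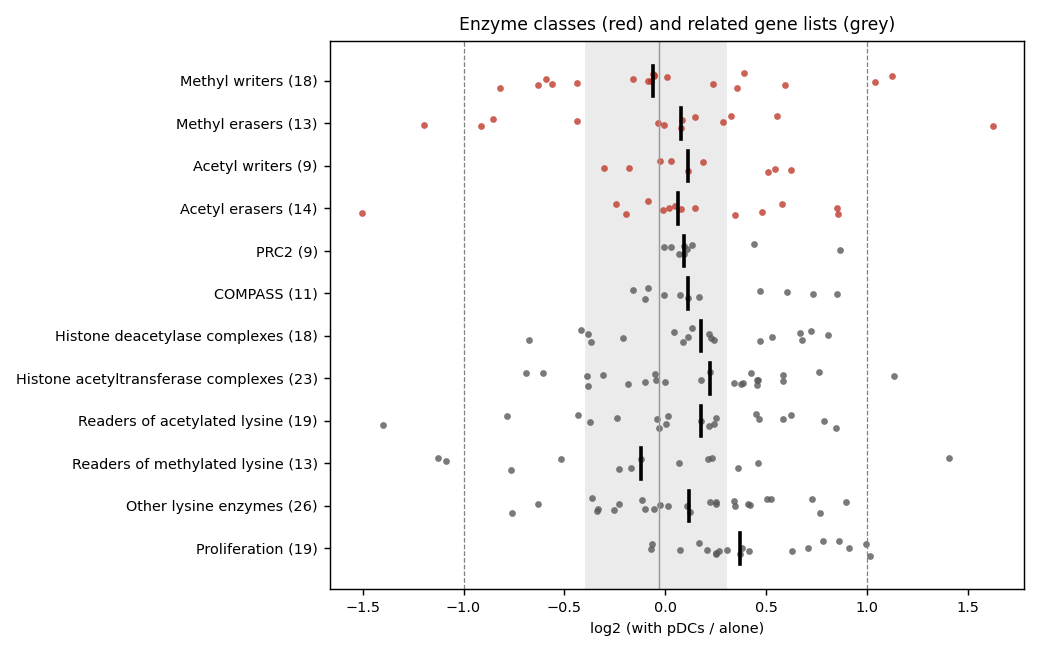
Log2 ratio (co-culture over alone) of each gene in the 4 enzyme classes (red) and in the related lists (grey), with the number of genes measured in brackets and black bars at list medians. The shaded band spans the quartiles of all genes, -0.39 and 0.30. Cell type marker lists are not drawn. Of the medians drawn, that of the proliferation genes, at 0.37, lies outside the band.

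Genes used as markers of cell types were read beside the enzymes. By its label, the culture alone held MM.1S cells only. Marker signals on that array, such as TCF4 at 4400 and LYZ at 711, therefore do not measure added cells. A lower ratio of such a marker cannot be read as fewer cells of that type in co-culture. The pDC markers CLEC4C and IL3RA were not measurable on either array, at 61.4 in co-culture against 6.43 alone and 29.0 against 21.1. LILRA4, another defining pDC marker, was measurable on both, at 306 in co-culture against 256 alone (0.26), and TLR7 gave a bound of at least 0.78. Over the list of 15 pDC markers, 11 were measured, 3 with positive and 8 with negative ratios. The 4 past 2-fold on their brightest probe sets were all lower in co-culture. They were GZMB (-1.79), PACSIN1 (-1.21), BCL11A (-1.22 or lower) and TLR9 (-1.16 or lower). For comparison, 4.51% of all genes measured were lower by as much and 3.16% higher. Another BCL11A probe set pointed the other way, at 142 in co-culture against 65.9 alone (at least 0.20), and a further one gave -0.47 or lower. The summed signal of all 15, with the 4 below the floor on both arrays included, was 7050.5 in co-culture against 9459 alone. The largest part came from TCF4 (3569 against 4400). The plasma cell markers SDC1 and IRF4 were high on both arrays, with log2 ratios of -0.05 and 0.07. Others in that list of 10 differed more, from -0.67 (MZB1) to 2.07 (GPRC5D, 4255 in co-culture against 1016 alone). In all, 4 plasma cell ratios were positive and 6 negative, with a median of -0.26. Summed over 10 plasma cell markers the signal was 167317 against 195813. The monocyte and macrophage list had 7 of 10 measured. Its 9 genes with a probe set, 2 of them below the floor on both arrays, summed to 749.7 in co-culture against 1630.2 alone. Most of that gap came from 1 probe set of LYZ, at 17.0 against 711, while the other LYZ probe set was below the floor on both arrays (74.0 against 114) and ITGAM went the other way (at least 0.91). Of 8 T cell markers 4 were measured, with CD3D, CD3E, CD2 and LCK below the floor on both arrays. All 8 together summed to 6502 in co-culture against 4749 alone, mostly from CD28 (4807 against 3582) and TRAT1 (1265 against 630.1). The part of other cells in the enzyme ratios was not tested.

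**Figure D5:**
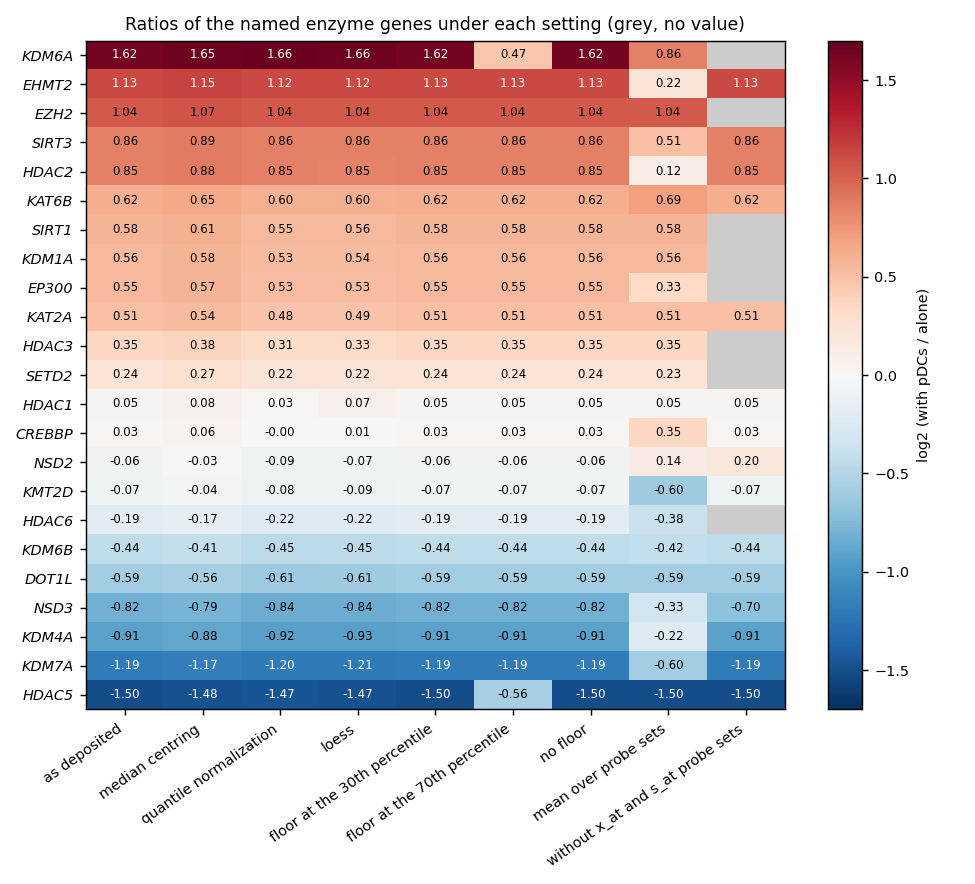
Log2 ratio (co-culture over alone) of the named enzyme genes as deposited and under each alternative setting. Numbers give the ratio and grey marks no value. EZH2 stays between 1.04 and 1.07 in the 8 settings that give it a value, whereas KDM6A, EHMT2 and KDM7A fall short of 2-fold with the mean over probe sets. That mean counts bounds as ratios. HDAC5 lies between -1.50 and -1.47 except with the floor at the 70th percentile, which leaves a bound of -0.56 or lower.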

How the data were processed

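Signals of 1 array of MM.1S cells with pDCs and 1 of MM.1S cells alone were used as deposited. These deposited values are linear intensity signals; the submitters' processing notes name MAS5, with no version or settings. Trimmed means (2% at each end) were 500.1 on both arrays, so the authors' scaling sets average signals equal. Such scaling hides a change common to most transcripts.

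Of 54675 probe sets, 41091 had 1 gene symbol in the platform annotation, 1801 had several, 11721 had none and 62 were controls. All 172 member probe sets kept their symbol by gene identifier in RefSeq GRCh38.p14. A gene was read from its brightest probe set, by mean log2 signal. Signals under the array's median were set to it; a gene under it on 1 array has a bound, and under it on both no ratio.

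The members and lists were chosen with earlier results of these data known. Named members were those past 2-fold, the 3 largest ratios per class and 16 fixed genes, with others given by mark. Related lists are named by their largest ratio, or by those past 2-fold. EED, SUZ12 and the single markers of cell types and proliferation were named after their values were seen. Gene span replaced protein length, for which no table was used here. Calculations were tested on simulated data and used statsmodels 0.14.6 (loess), pandas 2.3.3, numpy 2.4.6, scipy 1.17.1 and matplotlib 3.10.9 under Python 3.11.15.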

Additional observations from a re-analysis of the deposited data

How the results depend on the processing

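Alternatives were median centring, quantile normalization, loess (span 0.3), a lower floor (30th percentile), a higher one (70th percentile), no floor, the mean over a gene's probe sets, leaving out x_at and s_at probe sets, and thresholds of 1.5-fold and 3-fold. Of 74 recomputed counts, medians and differences, 60 stayed within 1.5 times (counts) or 0.1 log2 units. Part of these could not move. Medians over members measurable on both arrays, also counted here, repeat the main ones because all 54 were. Median centring cannot change a difference of medians, and a lower floor or none only adds SETD1A. Members at least 2-fold higher numbered 1 with the mean over probe sets, 1 without x_at and s_at probe sets, 1 at 3-fold and 7 at 1.5-fold. Members at least 2-fold lower numbered 1 with the floor at the 70th percentile, 1 with the mean over probe sets, 0 at 3-fold and 7 at 1.5-fold. With the mean over probe sets, EHMT2 had 0.22, KDM6A 0.86 and KDM7A -0.60; with the floor at the 70th percentile, KDM6A had at least 0.47 and HDAC5 -0.56 or lower. The mean over probe sets gave medians of -0.048 for methyl erasers and 0.33 for acetyl writers, and writers minus erasers of -0.019 for methylation and 0.28 for acetylation. Without x_at and s_at probe sets, 39 members were left, without EZH2 and KDM6A; methyl erasers had a median of -0.29, and methyl writers minus erasers was 0.30. The higher floor leaves bounds, and fewer probe sets leave fewer genes. The mean over probe sets counts bounds as if they were ratios, and those of no direction as 0, as in EHMT2 and KDM7A. For KDM6A it averages ratios of 1.62 and 0.10. The part of such bounds in the moved medians was not tested. Of 54 members, 11 changed sign with the mean over probe sets and at most 3 under a scaling. Without x_at and s_at probe sets, 5 of the 39 left did. No paired analysis was possible because each group has 1 array.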
